A study of Mus musculus with 26 samples.

Results

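Eph receptors, their ephrin ligands, semaphorins and their plexin receptors form the main families of contact and secreted guidance proteins, and their 51 genes were examined among the 21951 protein-coding genes of the GENCODE M21 annotation. Genes were taken by symbol alone, and comprised 14 Eph receptors, 8 ephrins, 20 semaphorins and 9 plexins. Expression was read from 6 RNA-Seq libraries of mouse embryonic fibroblasts (MEFs), and ATRX, EZH2 and H3K27me3 were read from 16 CUT&RUN peak lists. All cells were female MEFs in culture. WT cells carried intact ATRX, a chromatin remodeller that also binds RNA. ATRXΔRBR cells were a single clone in which CRISPR-Cas9 had removed, in frame, the RNA-binding region of ATRX. ATRX KD cells expressed an shRNA against Atrx and had been selected with puromycin. Each genotype had 2 RNA-Seq libraries and 2 lists per CUT&RUN target, except that ATRX was not profiled in ATRX KD cells.

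Eph receptors are receptor tyrosine kinases that are activated by ephrins on the surface of neighbouring cells, and both partners can signal into their own cell. Semaphorins are secreted or membrane-bound ligands that act through plexins, often with neuropilins as co-receptors, and plexins act on small GTPases that control the cytoskeleton and adhesion. In fibroblasts and other mesenchymal cells these pathways are known for cell repulsion, sorting and migration. EZH2 is the catalytic subunit of PRC2, which deposits H3K27me3, a mark of Polycomb repression.

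The RNA-Seq libraries held between 9051693 and 21723647 estimated counts. Atrx was reported first because it checks the labels: its level in scaled counts (CPM, scaled to library size) was 619 and 429 in the WT libraries, 374 and 308 in those of ATRXΔRBR, and 420 and 556 in those labelled ATRX KD. The libraries labelled ATRX KD overlapped WT for Atrx RNA (log2 fold change -0.15 ± 0.21 (SE), adjusted p = 0.604 by the quasi-likelihood test of edgeR after Benjamini-Hochberg correction), and directions taken from them rest on the label. In TPM, which RSEM divides by effective transcript length, Atrx was at 233 and 141 in WT and at 331 and 512 in ATRX KD, without overlap and with the opposite sign (difference in log2(TPM + 1) 1.18). The study also examined ATRX protein in these cells, which was not analysed here. In the libraries labelled ATRX KD the effective gene lengths implied a read or fragment length of 37.55 bases, against 38 in the other 4. The sample titles name no batch, and a batch difference could not be told apart from knockdown. Among 10 fibroblast markers, the summed level lay between 7202 and 11556 TPM, carried by Vim, Col1a1, Col1a2 and Fn1, while Thy1 was at 0 in all 6 libraries. Single fibroblast markers moved with genotype: WT libraries held Col3a1 at 70.1 and 60.5 CPM, ATRXΔRBR libraries at 36.3 and 33.9 (adjusted p = 0.0225 by edgeR), and ATRX KD libraries at 0.446 and 0.561 (adjusted p = 2.44e-05). For Dcn the WT libraries held 19 and 8 counts, the ATRXΔRBR libraries 30 and 53, and both ATRX KD libraries 0 (adjusted p = 0.0111 for ATRX KD). Other fibroblast markers went the other way in ATRX KD. Fn1 (log2 fold change 0.99 ± 0.15, adjusted p = 0.00358 by edgeR) and Pdgfrb (0.51 ± 0.11, adjusted p = 0.0116) were higher than in WT. Vim, Col1a1, Col1a2 and Pdgfra were not called there. The 5 endothelial markers summed to 1.36 and 1.84 TPM for WT, 5.55 and 3.27 TPM for ATRXΔRBR, and 0.12 and 0 TPM for ATRX KD, with Cdh5 and Cldn5 at 0. Of these, Pecam1 went from 20 and 21 counts for WT to 51 and 53 for ATRXΔRBR (adjusted p = 0.0479 by edgeR) and to 0 in each ATRX KD library (adjusted p = 0.00373). Tek went the other way in ATRXΔRBR, from 13 and 7 counts for WT to 3 and 5, but was not called (-1.18 ± 0.63 on the log2 scale, adjusted p = 0.347). The 5 epithelial markers summed to at most 1.12 TPM. Of these, Cdh1 went from 11 and 10 counts for WT to 1 and 2 for ATRX KD (adjusted p = 0.0204 by edgeR). In ATRXΔRBR Cdh1 was at 17 and 24 counts and was not called. The 5 macrophage markers summed to 9.19 to 16.3 TPM, with Adgre1 at 0. The 4 muscle markers summed to at most 2.99 TPM, with Myod1 and Myog at 0. Des went from 4 and 3 counts for WT to 16 and 31 for ATRXΔRBR (adjusted p = 0.0194 by edgeR). The 5 neuronal markers, almost entirely Map2, summed to 15.3 to 26.8 TPM in WT and ATRXΔRBR and to 45.5 and 49.2 TPM in ATRX KD, with Rbfox3 at 0. Stmn2, with 8 counts in each WT library, and Syt1, with 6 and 13, went the other way. Both were at 0 in all ATRXΔRBR and ATRX KD libraries (adjusted p = 0.0155 and 0.0184 for ATRX KD by edgeR). The part of these marker differences in the results was not tested. In bulk RNA, fewer expressing cells and less RNA per cell cannot be told apart.

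Promoter sequences are shown for the 4 genes with the lowest ratios of ATRXΔRBR to WT expression among those called, because these windows differ in base composition. EZH2 and H3K27me3 were read at the outermost annotated start of each gene, which is not always the RefSeq start. Each sequence runs from 250 bases before to 50 after the RefSeq start on GRCm38.p6, 5′ to 3′ on the strand of the gene, with CpG dinucleotides in capitals. The positions are chr16:63864126-63864425 (minus strand) for Epha3, chr5:13396534-13396833 (plus strand) for Sema3a, chr17:62881268-62881567 (minus strand) for Efna5 and chr4:28812881-28813180 (plus strand) for Epha7.
Epha3: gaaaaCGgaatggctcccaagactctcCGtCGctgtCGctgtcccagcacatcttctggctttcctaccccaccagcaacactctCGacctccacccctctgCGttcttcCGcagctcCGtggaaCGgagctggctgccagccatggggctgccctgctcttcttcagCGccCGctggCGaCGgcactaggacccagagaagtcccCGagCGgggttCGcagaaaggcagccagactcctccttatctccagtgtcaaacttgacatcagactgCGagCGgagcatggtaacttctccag
Sema3a: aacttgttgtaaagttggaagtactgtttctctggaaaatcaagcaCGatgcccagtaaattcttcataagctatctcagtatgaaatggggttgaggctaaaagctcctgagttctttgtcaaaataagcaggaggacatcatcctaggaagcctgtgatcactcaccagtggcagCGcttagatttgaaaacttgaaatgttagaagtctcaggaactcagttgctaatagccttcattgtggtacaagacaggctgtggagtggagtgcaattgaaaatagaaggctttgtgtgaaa
Efna5: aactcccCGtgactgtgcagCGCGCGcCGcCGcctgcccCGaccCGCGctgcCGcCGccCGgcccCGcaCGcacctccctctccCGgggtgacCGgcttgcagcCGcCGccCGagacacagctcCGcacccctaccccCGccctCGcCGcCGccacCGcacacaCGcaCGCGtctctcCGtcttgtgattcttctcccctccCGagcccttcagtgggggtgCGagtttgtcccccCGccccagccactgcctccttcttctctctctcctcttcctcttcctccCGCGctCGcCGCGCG
Epha7: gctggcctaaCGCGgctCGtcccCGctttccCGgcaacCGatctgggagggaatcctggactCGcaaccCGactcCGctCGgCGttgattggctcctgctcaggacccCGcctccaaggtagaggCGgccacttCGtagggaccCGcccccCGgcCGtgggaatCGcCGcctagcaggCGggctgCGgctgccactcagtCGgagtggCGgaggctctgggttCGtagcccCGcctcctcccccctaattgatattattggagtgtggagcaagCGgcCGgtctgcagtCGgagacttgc
The Efna5 window held 38 CpG at 73.3% GC and that of Epha7 held 28 at 67% GC, and both genes had EZH2 and H3K27me3 at the start in WT. Epha3 held 18 CpG at 60.7% GC. The Sema3a window held 2 CpG at 41.3% GC, and its RefSeq start lay 271370 bp from the outermost annotated start, where its peaks were read. RefSeq starts were matched by symbol, without a limit on distance, for 45 of the 51 genes. That of Sema4d lay 37064 bp from the outermost annotated start. The nearest RefSeq promoter of these genes held a median of 22 CpG, against 14 over all 20150 RefSeq promoters of protein-coding genes, and a median GC of 64.7% against 57%. With every RefSeq start of these genes counted (59 promoters), the medians were 20 CpG and 64% GC. The motif GGGCGG was present on either strand in 75.6% of the nearest promoters and in 47.8% of all promoters. A run of 6 G, GGGGGG, was present on either strand in 28.9% and 19.8%. Among the 10 genes with a matched start that carried both EZH2 and H3K27me3 in WT the median was 27.5 CpG, and among the 10 with neither it was 9.5. The group with neither includes Sema3a, whose window lies far from where its peaks were read.

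In WT cells, the guidance genes ranged from silent to strongly expressed. Compared per gene length in TPM, Plxnb2, a plexin that binds class 4 semaphorins, was highest at 246 ± 80.2 (SD, n = 2), followed by the secreted semaphorin Sema3f at 77.9 ± 7.88 and the ephrin Efna1 at 63.1 ± 2.47. The leading Eph receptors were Epha2 (55.1 ± 2.68 TPM), Ephb4 (38.0 ± 0.983 TPM) and Ephb3 (27.04 ± 6.24 TPM). Efnb2, a transmembrane ephrin and a ligand of Ephb4, was at 41.2 ± 1.49 TPM. Plxna3 at 32.3 ± 12.0 TPM and Plxna1 at 26.2 ± 10.9 TPM could not be ordered beyond their spread. The mean exceeded 1 TPM for 30 of the 51 genes, and Epha5 and Sema5b had no counts in any library.

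**Figure D1:**
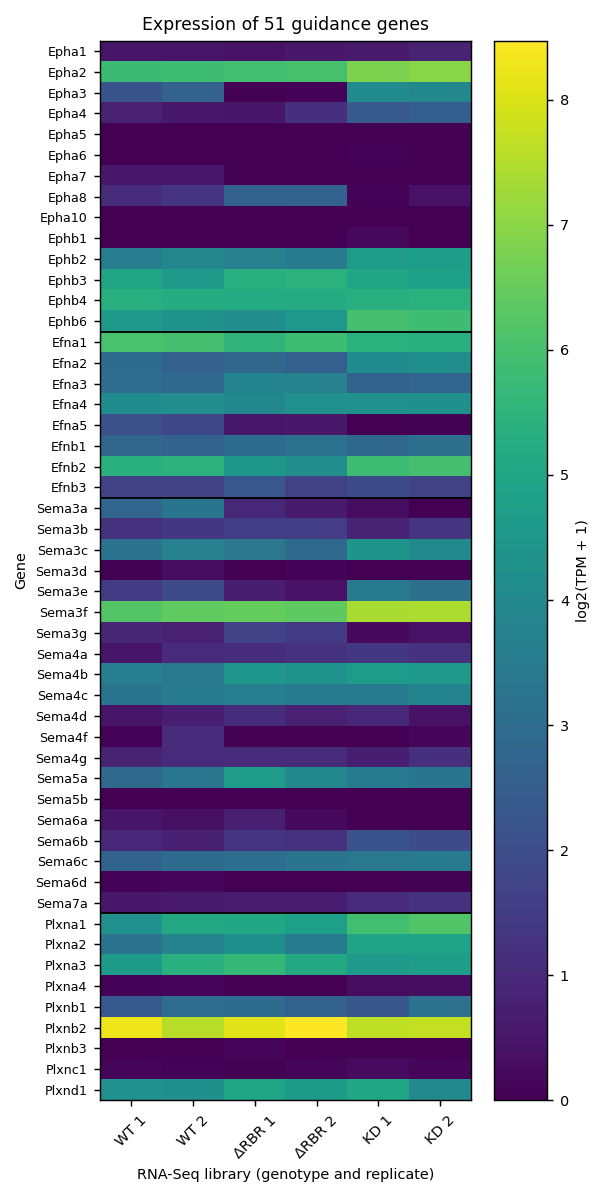
Expression of the 51 genes as log2(TPM + 1) (colour) in each of the 6 RNA-Seq libraries (columns), ordered by family, with lines between families. Plxnb2 was the highest in WT at 246 TPM, while several Eph receptors were near 0 in all libraries.

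Deletion of the RNA-binding region was compared with WT to find which guidance genes differ when ATRX lacks this region. Of the 42 genes with more than 10 counts over the 4 libraries, 9 were called at an adjusted p under 0.05 by edgeR, against 6.88% of all genes tested, with 3 higher (2.79% of all genes) and 6 lower (4.08% of all genes). Genes that passed this filter through the group where they are high are among them. The called genes were chosen on these same libraries, so groups without overlap, described below, add no support to a call. The share of all genes without overlap was not taken. The median log2 fold change of the 42 genes was 0.19, against -0.02 over all genes tested.

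**Figure D2:**
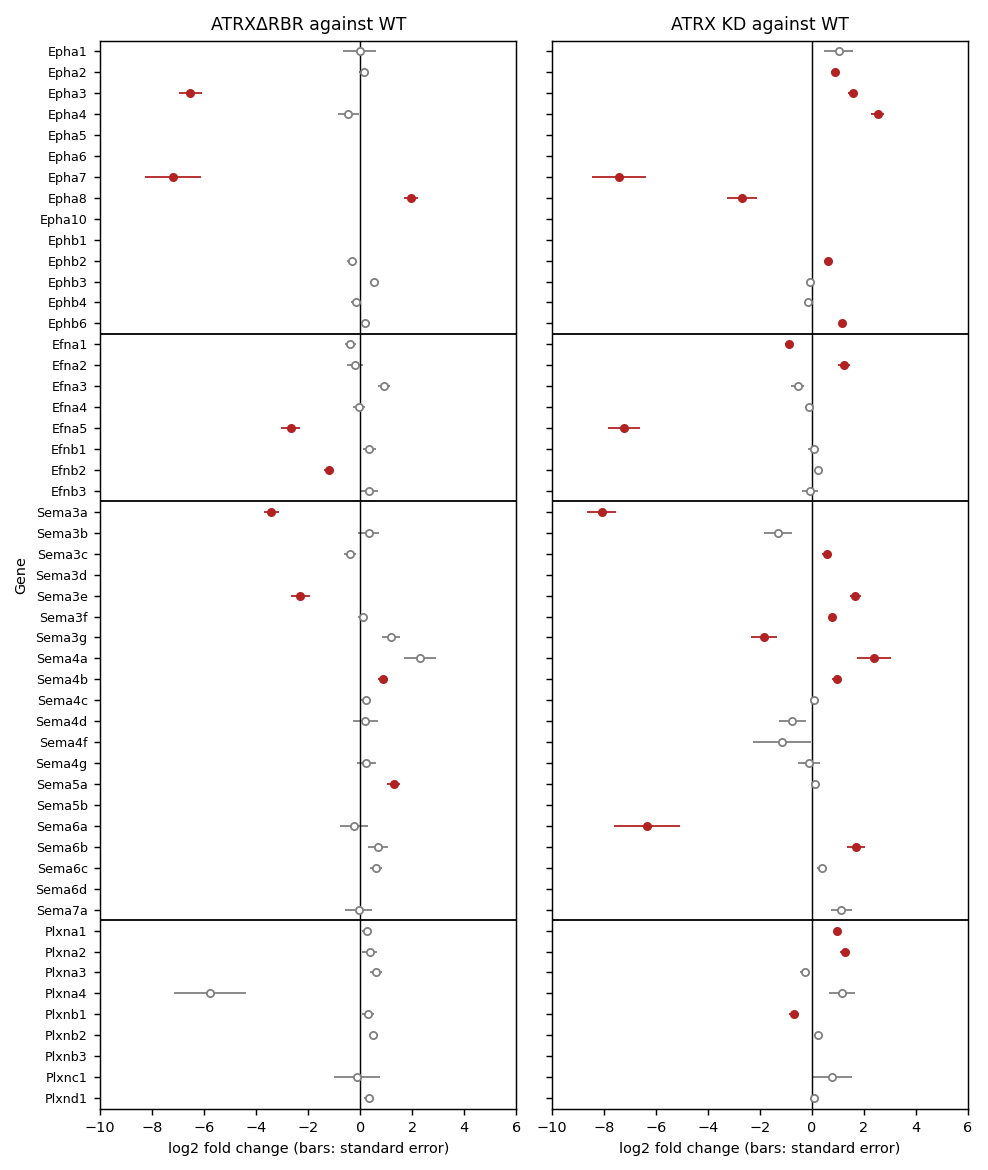
Log2 fold change (horizontal axis, bars are standard errors) of each gene in ATRXΔRBR and in ATRX KD against the same 2 WT libraries. Filled points passed an adjusted p under 0.05 by edgeR, open points did not, and genes without a point were not tested. Fitted values of genes at 0 in a group, such as Epha7 at -7.20, depend on the prior count.

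The Eph receptors held the lowest ratios. Epha3, a receptor for A-type ephrins, was counted 146 and 176 times in WT but only 1 and 2 times in ATRXΔRBR, against 363 and 808 times in ATRX KD. Both ATRXΔRBR libraries lay below both WT libraries, and both ATRX KD libraries lay above them also in CPM (40.5 and 37.8 against 10.9 and 14.5). WT exceeded ATRXΔRBR 98.4-fold after scaling (95% exact binomial interval 33.4 to 479, counting error only), with an adjusted p of 0.000336 by edgeR. Epha7, a further receptor for A-type ephrins, reached 20 and 18 counts in the WT libraries and 0 in each of the other 4. WT was at least 11.6-fold higher than ATRXΔRBR against a floor of 3 counts over the group, with an adjusted p of 0.0097 by edgeR. Epha8 rose, from 2.84 and 3.39 CPM in WT to 11.6 and 12.7 in ATRXΔRBR (log2 fold change 1.95 ± 0.26, adjusted p = 0.00407 by edgeR). The other 7 Eph receptors tested were not called, among them Epha2 (0.13 ± 0.17) and Ephb4 (-0.17 ± 0.18, log2 fold change ± SE).

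Among the ligands, 2 ephrins and 2 semaphorins fell. Efna5, a GPI-anchored ephrin, was at 7.03 and 4.96 CPM in WT and 0.848 and 1.01 in ATRXΔRBR (log2 fold change -2.68 ± 0.38, adjusted p = 0.00521 by edgeR). Efnb2 was at 103 and 97.7 CPM in WT and 44.9 and 42.4 in ATRXΔRBR, a difference of -1.21 ± 0.17 on the log2 scale with an adjusted p of 0.00545. Neither gene had overlapping groups. Sema3a, a secreted repellent of axons, fell from 17.5 and 22.1 CPM to 2.12 and 1.65 (-3.42 ± 0.28, adjusted p = 0.000604). Sema3e, the secreted ligand of Plxnd1, fell from 6.06 and 8.59 CPM to 1.91 and 1.15 (-2.30 ± 0.37, adjusted p = 0.00956). In both semaphorins each ATRXΔRBR library lay below each WT library.

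The membrane-bound semaphorins Sema5a and Sema4b rose. Sema5a was at 33.7 and 46.0 CPM in WT and 119 and 78.3 in ATRXΔRBR (log2 fold change 1.29 ± 0.25, adjusted p = 0.0219 by edgeR). Sema4b was at 22.1 and 16.9 CPM in WT and 35.9 and 36.7 in ATRXΔRBR (0.88 ± 0.20, adjusted p = 0.0388). The groups did not overlap for either gene, and the call of Sema4b was lost without WT replicate 2 or ATRXΔRBR replicate 2, with at least 10 counts required in every library, and with the replicate number as a block.

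None of the 8 plexins tested was called by edgeR. Plxna4 reached 6 and 8 counts in the WT libraries and 0 in those of ATRXΔRBR, at least 4.28-fold higher in WT, with an adjusted p of 0.0591. The largest differences not called were those of Plxna4, Sema4a (2.29 ± 0.62 on the log2 scale, 2 and 4 counts in WT, adjusted p = 0.0729) and Sema3g (1.19 ± 0.34, adjusted p = 0.0892). Of 52 tested genes from a list of co-receptors and signalling partners, 3 were called (5.77%, against 6.88% of all genes tested). The neuropilin Nrp2, a co-receptor for class 3 semaphorins, rose from 136 and 142 CPM to 294 and 228 (0.89 ± 0.18, adjusted p = 0.026 by edgeR). The adaptor Nck2 fell (-1.61 ± 0.27, adjusted p = 0.011), and the Rac regulator Chn2, with 8 and 10 counts in the WT libraries, had none in ATRXΔRBR, at least 5.50-fold lower (adjusted p = 0.039).

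**Figure D3:**
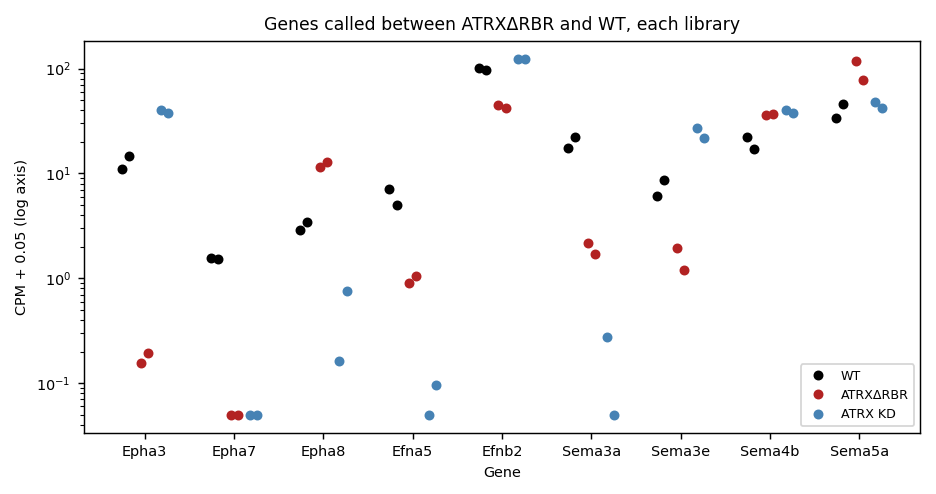
CPM (log axis, with a small constant added so that 0 can be drawn) of the 9 genes called between ATRXΔRBR and WT, with 1 point per library. ATRXΔRBR and WT do not overlap in any of the 9, which were chosen by a test on these same libraries. ATRX KD lies above WT for Epha3, Efnb2 (not called), Sema3e and Sema4b but below it for Epha7, Epha8, Efna5 and Sema3a.

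The libraries labelled ATRX KD were compared with the same WT libraries, so the values of both comparisons stand side by side and are not independent. Of 43 genes tested, 22 were called by edgeR, against 33.1% of all genes, with 14 higher (15.2% of all genes) and 8 lower (17.8% of all genes). The median log2 fold change was 0.13 for these genes and -0.02 over all genes. Of the partner list, 34 of 54 were called (63.0%, against 33.1% of all genes tested), 22 higher and 12 lower.

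Among receptors, 5 Eph genes rose. Epha4, a receptor that binds both ephrin classes, was at 1.80 and 1.57 CPM in WT and 9.93 and 10.3 in ATRX KD (log2 fold change 2.53 ± 0.25, adjusted p = 0.000728 by edgeR). Epha3 rose by 1.57 ± 0.18, Ephb6, a member without kinase activity, by 1.17 ± 0.13, and Epha2 by 0.87 ± 0.12 on the log2 scale. Ephb2 was called at 0.61 ± 0.13, but not without either ATRX KD library. Epha8 fell from 2.84 and 3.39 CPM to 0.112 and 0.701 (-2.70 ± 0.58, adjusted p = 0.0126), opposite in sign to its difference in ATRXΔRBR. Epha7 was at 0 in both libraries, at least 15.1-fold higher in WT.

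The plexins Plxna2 (1.28 ± 0.21) and Plxna1 (0.98 ± 0.13) rose in ATRX KD, with adjusted p of 0.00455 and 0.0019 by edgeR. Plxnb1 was called lower (-0.68 ± 0.21, adjusted p = 0.041), but lost the call with DESeq2 and without either ATRX KD library, and its difference in log2(TPM + 1) was 0.04. Exons of Plxna1, Plxnb1, Plxna4, Efna3, Efna4, Ephb4, Epha1, Epha6, Epha10, Ephb1 and Sema4c overlap exons of other genes on the opposite strand, and those of Plxnc1 and Sema4a overlap another gene on the same strand, which strand cannot resolve, while the 9 genes called in ATRXΔRBR have no such overlap. The library kit kept strand, but the strand setting of the counting is not given in the sources used here. The neuropilins Nrp1 (1.84 ± 0.14) and Nrp2 (1.59 ± 0.11) and the adhesion molecule L1cam (3.24 ± 0.32) also rose. The largest differences not called in ATRX KD were those of Sema3b (-1.31 ± 0.54), Plxna4 (1.18 ± 0.50) and Sema4f (-1.14 ± 1.12).

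Ligands changed in both directions. Sema3a dropped from 234 and 268 counts to 2 and 0, a ratio of 299 (95% exact binomial interval 82.4 to 2477, counting error only). Efna5 dropped from 94 and 60 counts to 0 and 1, a ratio of 184 (interval 32.5 to 7295). Sema6a dropped from 10 and 8 counts to 0 in both libraries, at least 7.15-fold lower. These 3 genes had adjusted p of 0.000205, 0.000473 and 0.0131 by edgeR. Sema3e rose from 6.06 and 8.59 CPM to 26.9 and 21.7 (1.67 ± 0.22, adjusted p = 0.00207), again opposite in sign to ATRXΔRBR. Sema3f (0.78 ± 0.13), Sema4b (0.95 ± 0.17), Sema6b (1.70 ± 0.33) and the ephrin Efna2 (1.24 ± 0.24) rose as well. Sema4a (2.40 ± 0.64) and Sema3c (0.58 ± 0.17) were called higher and Sema3g (-1.84 ± 0.51) lower, but each call was lost without ATRX KD replicate 1, those of Sema4a and Sema3g also without WT replicate 1 and that of Sema3c also without ATRX KD replicate 2, and adjusted p over the alternatives reached 0.0825, 0.151 and 0.0918 in turn. DESeq2 also ended the calls of Sema4a and Sema3g. Efna1 fell by 0.88 ± 0.15 on the log2 scale, and Efnb2, at 122 and 125 CPM, was not called (0.25 ± 0.11, adjusted p = 0.135).

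The difference between the 2 modified lines was tested directly. Of 41 genes tested, 26 were called by edgeR, against 34.8% of all genes, with 14 higher in ATRX KD (16.3% of all genes) and 12 lower (18.5% of all genes). Epha3 was higher in ATRX KD by a ratio of 300.1 (95% exact binomial interval 102 to 1458, counting error only), and Sema3e by 3.97 ± 0.27 on the log2 scale. Efnb2 was higher by 1.45 ± 0.13 (adjusted p = 5.79e-05). Epha8 was lower by -4.60 ± 0.41, Sema5a by -1.17 ± 0.19 and Efna3 by -1.47 ± 0.23. The calls of Efna1, Ephb3, Sema3b and Sema6b were lost without ATRX KD replicate 1, and those of Efna1, Epha2, Ephb3, Plxna1, Sema3f and Sema6b without ATRX KD replicate 2, while Efna1 and Sema3b were also lost without ATRXΔRBR replicate 2. DESeq2 ended the calls of Efna1, Sema3b and Sema6b. For Sema4b the difference was 0.06 ± 0.14 (adjusted p = 0.781). Plxna4, at 0 in ATRXΔRBR, was at least 10.3-fold higher in ATRX KD.

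At the transcription start (TSS, the outermost annotated start with 2 kb on each side), EZH2 was the most frequent of the 3 targets. An EZH2 peak was present in both WT lists for 31 genes, against 44.8% of protein-coding genes, and an H3K27me3 peak for 15 genes, against 14.7%. By family, EZH2 was present in both WT lists at 8 of 14 Eph receptors, 7 of 8 ephrins, 10 of 20 semaphorins and 6 of 9 plexins. ATRX peaks were present in both WT lists only at Efnb2, against 3.74% of protein-coding genes, and there the peaks of the WT lists did not overlap each other. Peaks were called per library and their read depth is unknown. With 2 lists against 2, an exact permutation test cannot give a two-sided p below 0.333, so peaks are described without a test.

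Expression in WT differed with the peaks at the start. The 19 genes with EZH2 alone had a median of 12.4 TPM, and the 12 with EZH2 and H3K27me3 a median of 0.475 TPM, against 35.4 and 0.105 TPM over all protein-coding genes in these states. The 13 genes with neither had a median of 0.81 TPM, and 6 differed between the replicate lists. Sema6d alone had H3K27me3 without EZH2 at the outermost start. At an inner start of Sema6d both WT lists had EZH2 peaks, 2145 and 2206 bp wide with midpoints 520325 and 520301 bp into the gene, inside H3K27me3 peaks. Of the 9 genes called in ATRXΔRBR, Efna5, Epha7 and Epha8 had both marks in WT, Efnb2 and Sema5a had EZH2 alone, Sema3a, Sema3e and Sema4b had neither at the outermost start, and Epha3 differed between lists. The outermost annotated start of Sema3a lies 271370 bp from its RefSeq start. Within 2 kb of any annotated start of Sema3a, WT replicate 1 alone had an EZH2 peak, while Sema4b had one at an inner start in each WT list and in the first ATRXΔRBR list.

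**Figure D4:**
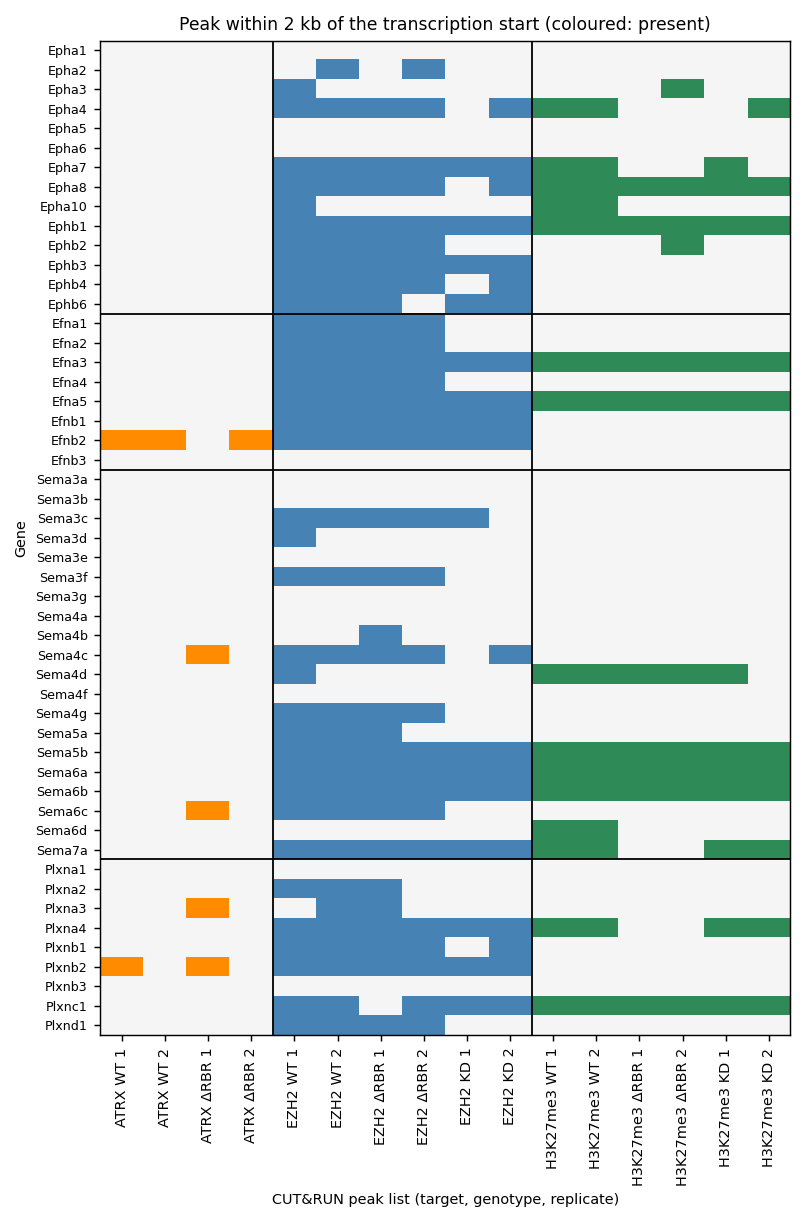
Presence (coloured) of an ATRX, EZH2 or H3K27me3 peak within 2 kb of the start of each gene (rows, by family) in each of the 16 lists (columns). EZH2 is present in both WT lists for 31 genes, and H3K27me3 is present in both WT lists and neither ATRXΔRBR list for 6.

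H3K27me3 at the start was lost in ATRXΔRBR, meaning present in both WT lists and in neither ATRXΔRBR list, at 6 genes, against 4.3% of protein-coding genes. These were the receptors Epha4, Epha7 and Epha10, the plexin Plxna4 and the semaphorins Sema6d and Sema7a. None gained it at the start, against 3.63%. Only genes with H3K27me3 at the start in both WT lists could lose it: 6 of 15 did, against 943 of 3225 protein-coding genes. EZH2 was lost and gained at 0 genes (1.19% and 0% of protein-coding genes), and ATRX was likewise lost and gained at 0 (0.424% and 0.337%). The EZH2 lists held 22418 and 11408 peaks in ATRXΔRBR and 22316 and 18351 in WT. The ATRX lists held 6274 and 4813 peaks in ATRXΔRBR and 9141 and 4781 in WT. A gain needs a peak in both ATRXΔRBR lists, so the shorter list limits it. EZH2 peaks were present in both ATRXΔRBR lists at Epha4, Epha7, Plxna4 and Sema7a. At Epha7, the H3K27me3 peaks at the start were 6826 and 8352 bp wide in WT, and EZH2 peaks were 4847 and 4569 bp wide in WT and 3128 and 4223 bp wide in ATRXΔRBR. None of the 6 genes was called higher in ATRXΔRBR, against 2.79% of all genes tested. Epha7 fell, Epha4 differed by -0.46 ± 0.41 and Sema7a by -0.06 ± 0.52 on the log2 scale, and Plxna4 was not called. Epha10 and Sema6d had at most 3 counts in any library and were not tested.

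In ATRX KD, EZH2 at the start was lost at 10 genes, against 18.3% of protein-coding genes, and H3K27me3 at Epha10 and Sema6d, against 8.64%. No gene gained either at the start, against 0.173% for EZH2 and 0.369% for H3K27me3. Of genes with the peak in both WT lists, EZH2 was lost at 10 of 31, against 4021 of 9842 protein-coding genes. For H3K27me3 this was 2 of 15, against 1896 of 3225. The EZH2 lists of ATRX KD held 5376 and 7093 peaks and those of WT 22316 and 18351, so the lost peaks cannot be told apart from a list with fewer peaks. The same holds for H3K27me3, with 7241 and 6336 peaks in ATRX KD and 36011 and 38832 in WT. H3K27me3 at the start of Epha7 and of Epha4 was in 1 of the 2 ATRX KD lists, and Plxna4 and Sema7a carried it in both.

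Over the gene body, Epha3 was the one gene of the 51 that gained H3K27me3 in ATRXΔRBR, counted over the gene and its TSS window, against 5.46% of protein-coding genes. Epha3 lies at chr16:63543534-63864175 on the minus strand (mm10). No H3K27me3 peak touched it in either WT or either ATRX KD list. In each ATRXΔRBR list 7 peaks lay beyond the TSS window, and peaks covered 11.9% and 10.8% of the gene. The widest spanned 23036 bp with its midpoint 13749 bp inside the gene, and fold enrichments in the 2 lists ran between 3.09 and 4.33. The same gene had 1 and 2 counts in these cells, and no EZH2 peak touched it there.

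The widest H3K27me3 cover in WT was that of Epha10 (61.7% and 58.9% of the gene), Epha8 (59.7% and 57.3%) and Efna3 (52.5% and 55.2%). In ATRXΔRBR the cover of Epha10 was 16.2% and 6.48%, that of Epha8 49.7% and 51.6%, and that of Efna3 53.9% and 49.9%. Epha8 had wide H3K27me3 in the cells where its RNA rose. Sema5b, Ephb1 and Plxnc1, singled out after their values were seen, had cover of 40.0% and 44.4%, 10.6% and 13.5%, and 12.8% and 11.8% in WT. In ATRXΔRBR these were 26.3% and 27.7%, 1.41% and 1.86%, and 0.866% and 0%. For each of these 3 genes both ATRXΔRBR lists lay below both WT lists, which adds no support because of how they were chosen. In ATRX KD, cover was 4.85% and 8.46% for Epha10, 1.11% and 4.79% for Epha8, whose RNA fell there, and 19.6% and 37.7% for Efna3. It was 3.03% and 2.70% for Sema5b, 0.813% and 0.456% for Ephb1, and 1.72% and 0.435% for Plxnc1. For all of these genes both ATRX KD lists also lay below both WT lists, but the ATRX KD lists held fewer H3K27me3 peaks. Over the gene and its TSS window, H3K27me3 was lost in ATRXΔRBR at 5 genes (3.95% of protein-coding genes), the 6 above without Epha10, and in ATRX KD at 0 (9.2%), where only Sema5a gained it (0.756%). EZH2 was lost over the gene at Sema4f alone in ATRXΔRBR (1.3%), was gained at 0 (0.00456%), and was lost at 13 genes in ATRX KD (21.2%) and gained at 0 (0.241%). Of genes with H3K27me3 so counted in both WT lists, 5 of 16 lost it in ATRXΔRBR, against 868 of 4250 protein-coding genes. In ATRX KD 0 of 16 lost it, against 2019 of 4250. For EZH2 in ATRX KD this was 13 of 36, against 4647 of 11268.

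**Figure D5:**
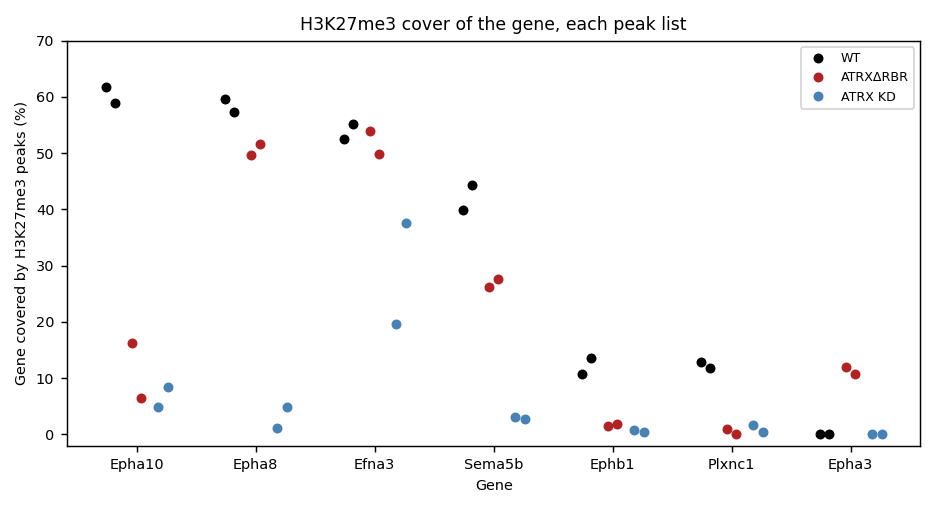
Percent of the gene covered by H3K27me3 peaks in each of the 6 lists (1 point per list) for the 3 genes with the most cover in WT and for 4 genes singled out after their values were seen. Epha3 has cover only in the ATRXΔRBR lists, at 11.9% and 10.8%.

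ATRX peaks touched 7 of the 51 genes in both WT lists, against 8.27% of protein-coding genes, and 3 of them, Epha2, Sema3a and Sema3e, in neither ATRXΔRBR list, against 0.77%. None was gained, against 0.437%. The peaks of Sema3a lay 239881 bp into the gene in WT replicate 2 and 352487 and 401812 bp in WT replicate 1, so no peak was shared. In Epha2 the peaks also lay apart, at 8202 and 6007 bp. In Sema3e the lists shared 184 bp at 48080 bp into the gene. Sema3a and Sema3e fell in ATRXΔRBR and Epha2 was not called. Their −log10 q-values lay between 1.62 and 3.13, and the semaphorin genes are long, with Sema3a at 477 kb and Sema3e at 231 kb against a median of 17.4 kb over protein-coding genes.

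At the start window of Efnb2, ATRX peaks were called in each WT list and in the second ATRXΔRBR list. The promoter is shown because the peaks of WT replicate 1 and ATRXΔRBR replicate 2 share 75 bases of it. It lies at chr8:8661193-8661492 on the minus strand of GRCm38.p6, with the shared bases in capitals.
Efnb2: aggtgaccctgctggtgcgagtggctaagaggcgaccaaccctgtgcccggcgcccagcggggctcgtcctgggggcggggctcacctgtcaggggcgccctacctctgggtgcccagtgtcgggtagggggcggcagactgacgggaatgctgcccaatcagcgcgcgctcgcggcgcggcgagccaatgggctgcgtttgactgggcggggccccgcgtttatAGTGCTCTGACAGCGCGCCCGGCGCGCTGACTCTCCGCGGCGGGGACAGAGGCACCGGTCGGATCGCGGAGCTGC
This window held 35 CpG at 72.3% GC. EZH2 peaks were present at the start of Efnb2 in all 6 EZH2 lists and H3K27me3 in none, while its RNA fell in ATRXΔRBR.

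A further ATRX stretch is shown for Sema5a, which rose in ATRXΔRBR. Peaks of the 2 WT lists and of the second ATRXΔRBR list shared 170 bases in an intron, at chr15:32322764-32322933 on the plus strand of GRCm38.p6, about 78 kb into the gene.
Sema5a: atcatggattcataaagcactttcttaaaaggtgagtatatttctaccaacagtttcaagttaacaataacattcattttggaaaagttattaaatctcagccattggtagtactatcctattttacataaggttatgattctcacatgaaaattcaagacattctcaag
This stretch held no CpG at 29.4% GC, unlike the Efnb2 window. EZH2 peaks lay at the same place in both WT lists and in neither ATRXΔRBR list, with midpoints 78027 and 78142 bp into the gene.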

How the data were processed

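The 51 genes and all gene lists were chosen with earlier results of these data known. The authors mapped CUT&RUN reads to mm10 with Bowtie2 and called broad peaks per library with MACS2. Fold enrichment (a ratio to background), the −log10 q-value and an integer score derived from it are MACS2 output as deposited by the authors, and the score was not used. The authors aligned RNA-Seq reads with STAR and used RSEM for the deposited expected counts, TPM and FPKM per gene, of which FPKM was not used. The labels and the methods name another H3K27me3 antibody than the study's list of antibodies does.

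Expected counts were rounded, genes were kept if the 4 libraries compared held more than 10 counts in all, and genotypes were compared with TMM normalization and edgeR's quasi-likelihood test (edgeR 4.0.16, R 4.3.3), two-sided, with Benjamini-Hochberg adjustment over all genes tested. CPM values use TMM-scaled library sizes of all 6 libraries. Groups were taken from the labels. DESeq2 1.42.0, other filters, a single fit, a replicate block and the omission of each library were alternatives. The fit was checked on simulated data. Replicates are biological per the study's methods, but ATRXΔRBR is 1 clone, so p-values measure the spread between these libraries. Intervals and floors cover counting error only.

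A peak was counted from 1 bp of overlap with 2 kb on each side of the outermost GENCODE M21 start. Promoter sequences were from RefSeq on GRCm38.p6, and all 59 promoter rows of these genes equalled the genome. Python 3.11.15, pandas 2.3.3, scipy 1.17.1 and matplotlib 3.10.9 were used. Values are given for genes called in any comparison, the 3 most expressed of each family in WT, those with ATRX at the start in both lists of a genotype, those with a lost or gained EZH2 or H3K27me3 peak at the start, the 3 largest differences not called per comparison and the 3 with the most H3K27me3 cover in WT. Sema5b, Ephb1 and Plxnc1 were added for H3K27me3 cover after their values were seen. IgG libraries were not analysed here.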

Additional observations from a re-analysis of the deposited data

How the results depend on the processing

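Of the 9 genes called between ATRXΔRBR and WT, 8 kept the call under every alternative that tested them, and Sema4b did not (adjusted p up to 0.131). With at least 10 counts in every library 5 guidance genes were called: Epha3, Epha7 and Efna5 were no longer tested, and Sema4b was tested but lost its call (adjusted p = 0.0541 by edgeR). The number of all genes called, 1120, was 1979 without a filter, 597 with at least 10 counts in every library and 1815 with all 6 libraries in a single fit, and the cause was not tested for the last. With a log2 fold change of at least 1, 14 guidance genes and 2497 genes were called in ATRX KD against WT, and 15 and 2612 in ATRX KD against ATRXΔRBR. Leaving out a library gave 8 to 10 guidance genes and 1050 to 1523 genes in ATRXΔRBR against WT, 17 to 26 and 3194 (without ATRX KD replicate 2) to 8953 (without WT replicate 2) in ATRX KD against WT, and 20 to 27 and 3088 (without ATRX KD replicate 2) to 8734 (without ATRXΔRBR replicate 1) in ATRX KD against ATRXΔRBR. A lone library was assumed to vary like the other group. Plxnb1 in ATRX KD turned to 0.0378 as a difference in log2(TPM + 1).

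Replicate numbers were not treated as pairing. Same-numbered deviations correlated at -0.565 for WT and ATRXΔRBR, -0.0882 for WT and ATRX KD, and 0.118 for ATRXΔRBR and ATRX KD. The replicate block gave 9, 23 and 26 guidance genes in the 3 comparisons. Over all genes it called 1068 (6.56%), 5796 (34.6%) and 6775 (41.1%) in turn. The crossed pairing of ATRXΔRBR and WT, chosen after seeing the data, gave 23 guidance genes and 5547 genes.

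For peaks at the start, ATRX in both WT lists was at 2 genes with any annotated start, 0 at a q-value of 0.01 or less, and 1 to 2 when a list was left out. In ATRXΔRBR, ATRX was lost at 1 gene with any annotated start and at 0 to 1 when a replicate was left out, and gained at 0 to 3. EZH2 was lost there at 1 gene at a q-value of 0.01 or less and at 4 to 5 when a replicate was left out, and gained at 0 to 2. EZH2 was lost in ATRX KD at 13 to 19 genes when a replicate was left out. H3K27me3 was in both WT lists at 8 genes when the midpoint had to lie in the window. H3K27me3 was gained in ATRXΔRBR at 1 gene, Epha3, with any annotated start, and at 0 to 2 when a replicate was left out. H3K27me3 was lost in ATRX KD at 5 genes with 1 kb on each side, 0 with any annotated start, 4 at a q-value of 0.01 or less, 1 by midpoint and 3 to 4 when a replicate was left out, and gained at 3 by midpoint. Except where named, the cause was not tested. Shares over all protein-coding genes were taken only for the main setting. The counts under other settings therefore cannot be set against all genes. The lists give no read depth, so an absent peak does not show an absent mark.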
